A study of Homo sapiens with 4 samples.

Results

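Occupancy by the transcription factors RUNX1 and ETS1 was examined at 10 tumour suppressor genes of T-cell acute lymphoblastic leukaemia (T-ALL) that encode chromatin regulators, components of the ubiquitin system and a subunit of an mRNA-processing complex: PHF6, EZH2, SUZ12, EED, KDM6A, DNMT3A, TET2, FBXW7, USP7 and CNOT3. The genes were chosen by name, with earlier results of these data known, from 19839 protein-coding genes on chromosomes 1 to 22 and X. Every peak inside their RefSeq bounds or within 10 kb of them (genome build hg38) was collected. The data were CUT&Tag libraries from 6T-CEM, a human T-ALL cell line, in which an antibody guides a transposase to chromatin around its target. The groups were RUNX1 (antibody Abcam ab272456) and ETS1 (antibody Santa Cruz sc-55581), with 2 libraries each. All 4 libraries came from the same line, the labels name no treatment and no engineered allele, and each was called against IgG, a control antibody. Separate cultures for the 2 libraries of an antibody are not stated, so SDs measure only the spread between these libraries, which may be technical. The p-values likewise speak for these libraries alone.

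RUNX1 binds DNA together with CBFB and controls the formation of blood cells and thymocytes, and ETS1 is a winged helix-turn-helix factor that is abundant in lymphocytes. EZH2, SUZ12 and EED form the core of Polycomb repressive complex PRC2, which methylates histone H3 at lysine 27, and KDM6A removes that methylation. DNMT3A methylates DNA, TET2 oxidises methylated cytosine, and PHF6 is a PHD-finger protein that is recurrently mutated in T-ALL. FBXW7 is the substrate receptor by which an SCF ubiquitin ligase marks NOTCH1, MYC and cyclin E for degradation, USP7 removes ubiquitin from its substrates, and CNOT3 is a subunit of the CCR4-NOT deadenylase. The last is neither a chromatin nor a ubiquitin enzyme.

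The RUNX1 libraries held 25356 and 24997 peaks on these chromosomes, and the ETS1 libraries 6070 and 5611. The median pileup (fragments stacked at a summit) was 75 and 71 for RUNX1 and 54 and 51 for ETS1. Peak lists give no library totals, and absolute depth is unknown. Among T-lineage markers (CD3D, CD3E, CD3G, CD247, CD7, LCK, PTCRA and TCF7), 8 of 8 had a RUNX1 region and 8 of 8 an ETS1 region in the gene or within 10 kb, against 62.3% and 27.5% of all protein-coding genes. For myeloid markers (MPO, CSF1R, CD14 and ELANE) the numbers were 4 and 1 of 4, and for erythroid markers (GATA1, HBB, EPOR and KLF1) 3 and 3 of 4. The lists hold no expression values.

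RUNX1 occupied most of the suppressor genes and ETS1 fewer. Each ETS1 region overlapped a RUNX1 region, as did 97.98% of ETS1 regions in the genome. A region was counted when it held a peak of both libraries of an antibody. RUNX1 had 28 regions, in 8 of 10 genes, against a background of 62.3% of all protein-coding genes. ETS1 had 5 regions, in 4 of 10 genes, against 27.5% of all protein-coding genes. The contrast depended on the longer RUNX1 lists. With each library reduced to its 5611 most significant peaks, RUNX1 had 4 regions in 4 genes. ETS1 had 5 regions in 4 genes, and 3 of them overlapped RUNX1. The shares of all protein-coding genes are for the full lists and do not apply to the reduced ones. This cut did not follow fold, and RUNX1 regions of high fold, such as that inside EZH2 (18.9-fold), were lost. Both factors were at SUZ12, EED, FBXW7 and CNOT3, RUNX1 alone was at EZH2, KDM6A, DNMT3A and USP7, and neither had a region at PHF6 or TET2. In all protein-coding genes, 37.4% had neither. RUNX1 regions numbered 2.27 per 100 kb of the gene windows, against 1.28 per 100 kb around all protein-coding genes. For ETS1 regions the values were 0.406 against 0.311 per 100 kb. USP7 (8), DNMT3A (7) and CNOT3 (5) held most of the 28 RUNX1 regions, and some regions lay at starts of neighbouring genes. The 10 genes are 17.9 to 239.6 kb long, and a longer gene has more room for a region.

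**Figure D1:**
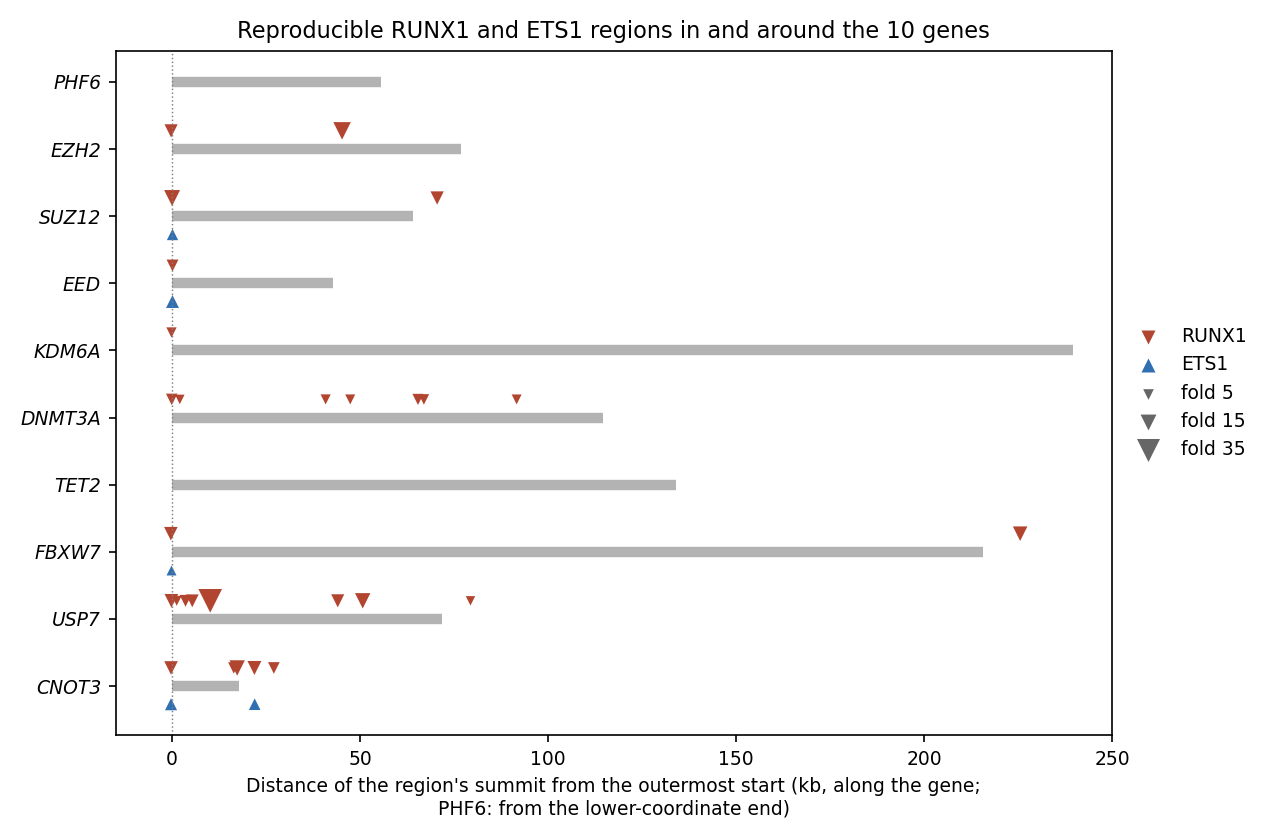
Reproducible regions in and around the 10 genes, by distance of the summit from the outermost listed start (kb; PHF6 from its lower-coordinate end). RUNX1 regions are drawn above and ETS1 regions below each gene (grey bar), with symbol size following the mean fold over IgG of 2 libraries; RUNX1 has 28 symbols, ETS1 has 5, and PHF6 and TET2 have none.

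At the starts of the genes, RUNX1 and ETS1 were found in the same 8 and 4 genes as in the whole window. RefSeq starts were at hand for 9 of the 10 genes, all but PHF6. A RUNX1 region touched the 1 kb around a start in 8 of 9 genes, against 48.9% of 15812 protein-coding genes with a start, and an ETS1 region in 4 of 9, against 20.3%. Of the 8 genes with RUNX1 at a start, 4 also had ETS1 there, against 40.8% of all genes with RUNX1 at a start. These counts describe 10 chosen genes, and no test was made on them. Of the 28 RUNX1 regions, 9 lay at a start, 14 elsewhere inside a gene and 5 in the flanks. Of the 5 ETS1 regions, 4 lay at a start, none elsewhere inside a gene and 1 in a flank. The gene table lists no exons, so regions inside a gene were not divided into exonic and intronic ones.

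The PRC2 genes differed from one another in ETS1: SUZ12 and EED carried it at the start and EZH2 did not. The call at SUZ12 ended at a −log10 q of 20 or more (its ETS1 peaks had 25.99 and 17.6), while that at EED (43.9 and 36.2) did not. SUZ12 (chromosome 17, 31937007 to 32001038) encodes the zinc-finger scaffold of PRC2. At its start, RUNX1 had a fold over IgG of 15.4 and 15.02 (mean 15.2 ± 0.237, SD, n = 2), and ETS1 one of 6.62 and 5.65 (6.14 ± 0.687). The summits of both factors lay 12 to 14 bp downstream of the start in all 4 libraries. This RUNX1 region was stronger than 78.5% of RUNX1 regions in the genome, and the ETS1 region stronger than 54.7% of ETS1 regions. The pileup was 152 and 142 fragments for RUNX1 and 56 and 44 for ETS1. A further RUNX1 region in the SUZ12 window, at 32007291 to 32008234 (9.64 ± 0.875-fold), covered the starts of LRRC37B and LOC124903972, neighbours of SUZ12. SUZ12P1, a partial copy of SUZ12 on the same chromosome, had 3 RUNX1 peaks in each RUNX1 library and no ETS1 peak within 10 kb. The sources used here do not say how reads that match both copies were placed, so values at SUZ12 are uncertain to that extent.

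EED (chromosome 11, 86244753 to 86287615) encodes the PRC2 subunit that reads trimethylated lysine 27. Its start had RUNX1 at 7.33 and 6.77-fold (7.05 ± 0.399) and ETS1 at 9.23 and 8.62-fold (8.92 ± 0.430). Among the 5 places where regions of both factors overlapped, it was the only one with a higher fold for ETS1 than for RUNX1 in both pairs of same-numbered libraries. Folds of separate antibodies are not a common scale of occupancy. Within each antibody's own list, 40.8% of RUNX1 regions were weaker than the RUNX1 region at EED, and 81.6% of ETS1 regions were weaker than its ETS1 region. RUNX1 summits lay 18 bp downstream and 5 bp upstream of the start, and ETS1 summits 9 bp upstream of it in both libraries. The pileup was 67 and 59 fragments for RUNX1 and 73 and 63 for ETS1, so the values of the factors overlapped in fragments and not in fold.

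The 300 bases around the starts of SUZ12 and EED are shown because they hold the summits of both factors (RefSeq, GRCh38.p14, 5′ to 3′ along the gene, from 250 bases before the start). Capitals mark GGAA, a core that ETS factors bind, on either strand.
SUZ12, chr17:31936757-31937056, plus strand: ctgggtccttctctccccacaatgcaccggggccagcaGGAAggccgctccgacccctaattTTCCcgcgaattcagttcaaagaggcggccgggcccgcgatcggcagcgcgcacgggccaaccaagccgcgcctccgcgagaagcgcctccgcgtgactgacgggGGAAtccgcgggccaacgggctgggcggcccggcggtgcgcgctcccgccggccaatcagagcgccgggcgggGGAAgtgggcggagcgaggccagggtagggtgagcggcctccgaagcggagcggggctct
EED, chr11:86244503-86244802, plus strand: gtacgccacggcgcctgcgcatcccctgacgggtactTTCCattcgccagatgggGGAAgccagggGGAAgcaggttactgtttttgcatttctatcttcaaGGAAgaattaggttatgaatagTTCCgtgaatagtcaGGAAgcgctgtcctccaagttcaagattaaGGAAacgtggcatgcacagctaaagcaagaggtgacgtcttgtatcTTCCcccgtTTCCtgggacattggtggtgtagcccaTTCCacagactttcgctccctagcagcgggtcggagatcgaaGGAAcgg
GGAA occurred 4 times in the SUZ12 window, with the match nearest to the start at -10 to -7, and 11 times in the EED window, where matches stood at -35 to -32, -26 to -23 and 1 to 4, counted from 0 at the start base. Since 95.5% of 34961 promoter windows of this length hold GGAA on either strand, with a median of 3 matches, its presence alone sets no promoter apart. The longer ETS sequence CCGGAAG was in 0 of 21 windows of the suppressor genes and in 10.3% of all windows. Only the windows of SUZ12 and EED hold ETS1 summits, since those at FBXW7 and CNOT3 lie upstream of the windows there. Some windows of DNMT3A also overlap one another. Counts over the 21 windows thus say little about the sites that ETS1 occupied. The composite GGATGTGG, which joins an ETS core to a RUNX sequence, was in 1 of 21, at a start inside FBXW7 with no peak in its window, and in 1.58% of all. The RUNX sequences TGTGGT and TGCGGT, searched on both strands, were in 19.6% of all windows and in 1 of 21 here, the window of a start inside USP7. None was in the windows printed for SUZ12 and EED, which says only that these letters are absent there.

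EZH2 (chromosome 7, 148807383 to 148884291), the catalytic subunit of PRC2, carried RUNX1 alone. RUNX1 was 10.5 and 8.39-fold over IgG (9.43 ± 1.47) in a region at 148884337 to 148885010, just upstream of the start, with summits 303 and 216 bp from it. A narrower region of 473 bp inside the gene, at 148838742 to 148839214, had a higher fold of 16.2 and 21.6 (18.9 ± 3.78). Its pileup was the lower of the pair, at 60 and 63 fragments against 125 and 103 at the start, while its IgG expectation was 2.76 and 1.97 against 11.03 and 11.4. The nearest ETS1 region was 144.1 kb from EZH2.

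Of the genes for KDM6A and PHF6, both on the X chromosome, KDM6A had a weak reproducible RUNX1 region and PHF6 had none. KDM6A (44873188 to 45112779) is the longest of the 10 genes at 239.6 kb and held a single RUNX1 region, at its start. The fold was 4.62 and 4.47 (4.55 ± 0.110), lower than at any other outermost start of the group, and only 14.3% of RUNX1 regions in the genome were weaker. Its pileup of 112 and 103 fragments exceeded that of 64.2% of RUNX1 regions, and its IgG expectation of 23.4 and 22.3 that of 96.6%. Summits lay 200 and 198 bp upstream of the start, and the nearest ETS1 region was 1218 kb away. The window is shown because both RUNX1 summits fall in it (same layout and capitals as above).
KDM6A, chrX:44872938-44873237, plus strand: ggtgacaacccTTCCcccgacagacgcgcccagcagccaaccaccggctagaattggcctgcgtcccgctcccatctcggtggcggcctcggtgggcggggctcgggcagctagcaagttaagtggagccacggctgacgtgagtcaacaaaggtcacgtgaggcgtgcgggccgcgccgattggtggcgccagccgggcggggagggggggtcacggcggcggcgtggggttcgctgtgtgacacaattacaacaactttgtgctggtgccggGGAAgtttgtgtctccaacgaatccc
It held GGAA on either strand at -239 to -236 and at 24 to 27, and neither RUNX sequence.

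PHF6 (134373312 to 134428790) had a RUNX1 peak of 3.33-fold in library 1, at 134373026 to 134373316 over its lower-coordinate end, with 69 fragments at the summit against an IgG expectation of 19.99. RUNX1 library 2 had no peak within 120.5 kb of the gene, so no region was counted. The nearest ETS1 peaks were 120.6 and 121.0 kb away. A site below the calling threshold is not listed, so the missing peak does not show that RUNX1 was absent from PHF6 in library 2.

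The DNA methylation genes differed in RUNX1: DNMT3A held 7 regions and TET2 held none. DNMT3A (chromosome 2, 25227874 to 25342590) is a de novo DNA methyltransferase. The region over its outermost starts, 25341672 to 25343036, was the widest of the 9 at starts (1365 bp) and had 6.82 and 6.10-fold RUNX1 (6.46 ± 0.512), with summits 89 and 85 bp upstream of the outermost start. The other 6 regions had mean folds of 3.42 to 5.87, and 3.18% to 29.2% of RUNX1 regions in the genome were weaker. One of them, at 25250679 to 25251243, reached into the 1 kb window of an internal start through the peak of library 1 alone. Its summits lay 1320 and 1046 bp downstream of that start, with folds of 4.94 and 3.05 (3.99 ± 1.34). The −log10 q of this region was 14.2 and 5.78. Of the 6, only those at 25275113 to 25275772 and at 25276577 to 25277551 reached 20 in both libraries. The nearest ETS1 region was 535.6 kb from DNMT3A.

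TET2 (chromosome 4, 105145875 to 105279803) had no peak in any of the 4 libraries. The nearest RUNX1 region was 193.5 kb from the gene and the nearest ETS1 region 1947 kb. The same limit applies, and the gene is not shown to be unbound. The windows of the outermost starts of DNMT3A, with both RUNX1 summits, and TET2, with no peak, are set side by side.
DNMT3A, chr2:25342541-25342840, minus strand: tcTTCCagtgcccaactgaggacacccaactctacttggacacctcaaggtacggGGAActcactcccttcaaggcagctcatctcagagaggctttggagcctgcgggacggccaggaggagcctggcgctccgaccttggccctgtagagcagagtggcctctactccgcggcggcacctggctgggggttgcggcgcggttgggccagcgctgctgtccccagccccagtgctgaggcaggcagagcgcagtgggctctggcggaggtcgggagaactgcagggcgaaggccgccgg
TET2, chr4:105145625-105145924, plus strand: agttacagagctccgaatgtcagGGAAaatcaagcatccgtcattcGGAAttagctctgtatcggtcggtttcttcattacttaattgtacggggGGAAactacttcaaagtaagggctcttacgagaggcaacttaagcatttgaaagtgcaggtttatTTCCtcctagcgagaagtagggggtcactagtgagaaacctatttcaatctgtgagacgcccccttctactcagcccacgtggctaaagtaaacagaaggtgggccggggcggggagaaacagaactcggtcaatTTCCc
The TET2 window, with no peak, held GGAA 5 times and was 47.7% G and C. The DNMT3A window, with RUNX1, held it 2 times and was 67.0% G and C. Neither held TGTGGT or TGCGGT.

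The ubiquitin genes contrasted in layout, with RUNX1 spread along USP7 and both factors gathered at the start of FBXW7. The ETS1 call at FBXW7 ended at a −log10 q of 20 or more (its peaks had 19.6 and 21.1). FBXW7 (chromosome 4, 152320544 to 152536092) had RUNX1 at 10.4 and 9.85-fold (10.1 ± 0.398) and ETS1 at 3.84 and 4.12-fold (3.98 ± 0.200) next to its outermost start. The pileup of 232 and 209 fragments for RUNX1 was the highest of all regions in the 10 genes, and 87.1% of RUNX1 regions in the genome had a lower one. For ETS1 it was 77 and 76 fragments, above 71.8% of ETS1 regions, while only 14.2% had a lower fold. The IgG expectation there was 21.4 and 20.3 in the RUNX1 libraries and 19.3 and 17.7 in the ETS1 libraries. These values are not counted as separate measurements, since all 4 libraries may rest on the same IgG control.

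RUNX1 summits lay 317 bp upstream of the FBXW7 start in both libraries and ETS1 summits 375 and 379 bp upstream, beyond the start of the divergent non-coding gene MIR4453HG at 152536264. Both ETS1 summits fell inside the hairpin of the microRNA gene MIR4453, at its bases 40 and 44, and RUNX1 summits 19 bp before it. The hairpin is shown as the sequence under the ETS1 summits (RefSeq, GRCh38.p14, 5′ to 3′), with the mature microRNA in capitals.
MIR4453 hairpin, chr4:152536428-152536516, plus strand: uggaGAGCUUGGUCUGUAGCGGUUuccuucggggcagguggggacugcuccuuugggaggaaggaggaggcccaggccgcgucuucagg
A region at the start of FBXW7 was thus also a region at MIR4453HG, and the lists do not tell which gene it belongs to. The other RUNX1 region in the window, at 152310295 to 152310719 (12.1 ± 1.25-fold), lay beyond the far end of FBXW7, at the start of the non-coding gene LOC105377492. No region of either factor lay elsewhere in the 215.5 kb of FBXW7.

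USP7 (chromosome 16, 8892097 to 8963906) held 8 RUNX1 regions, the most of the 10 genes, and no ETS1 region, the nearest being 22.8 kb away. The highest RUNX1 fold of the group was inside USP7 at 8953214 to 8954289, at 35.2 and 38.9 (37.1 ± 2.64), higher than 95.8% of RUNX1 regions. Its summit stood on the same base in both libraries, 10.2 kb downstream of the outermost start, with a pileup of 161 and 171 fragments over an IgG expectation of 3.60 and 3.42. At the outermost start the fold was 10.5 and 10.4 (10.5 ± 0.0378), with summits 171 bp upstream in both libraries. The other 6 regions ranged from 3.25 to 13.95-fold in the mean. The weakest, at 8884490 to 8885942, lay in the flank and touched LITAFD, and another, at 8962528 to 8962855 (3.88 ± 0.511), covered the start of the antisense gene USP7-AS1. RUNX1 peaks of 1 library only were found near each of the 2 internal starts, at 5.26-fold in library 1 and 8.0-fold in library 2.
USP7, chr16:8963857-8964156, minus strand: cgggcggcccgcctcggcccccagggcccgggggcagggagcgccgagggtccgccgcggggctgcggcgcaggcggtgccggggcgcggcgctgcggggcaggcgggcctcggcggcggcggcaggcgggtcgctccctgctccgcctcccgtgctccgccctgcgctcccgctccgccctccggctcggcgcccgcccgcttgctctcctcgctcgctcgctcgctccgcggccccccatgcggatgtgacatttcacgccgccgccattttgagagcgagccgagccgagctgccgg
This window of the outermost USP7 start holds both RUNX1 summits and has neither the ETS core nor either RUNX sequence on either strand, so it carries no capitals. It was 81.3% G and C.

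CNOT3 (chromosome 19, 54137762 to 54155681), the shortest of the genes, held 5 RUNX1 and 2 ETS1 regions. At its start RUNX1 was 10.1 and 10.2-fold (10.2 ± 0.0856) and ETS1 7.32 and 7.50-fold (7.41 ± 0.128). The summits of RUNX1 lay 275 and 269 bp upstream and those of ETS1 270 bp upstream in both libraries. The ETS1 pileup of 122 and 115 fragments exceeded that of 90.7% of ETS1 regions, the highest rank of the 5. At 54159015 to 54160536 both factors overlapped again, with RUNX1 at 11.0 ± 0.633-fold and ETS1 at 6.53 ± 0.338-fold. This second place was at the start of the neighbouring gene LENG1. RUNX1 was also 13.9 ± 0.336-fold at 54154892 to 54156090, where the end of CNOT3 overlaps the end of LENG1. ETS1 library 2 had a peak of 4.17-fold there and library 1 had none. The last 2 RUNX1 regions, at 6.12 ± 0.461-fold near the end of CNOT3 and 6.66 ± 0.0509-fold inside the neighbouring gene TMC4, held no ETS1 peak.

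**Figure D2:**
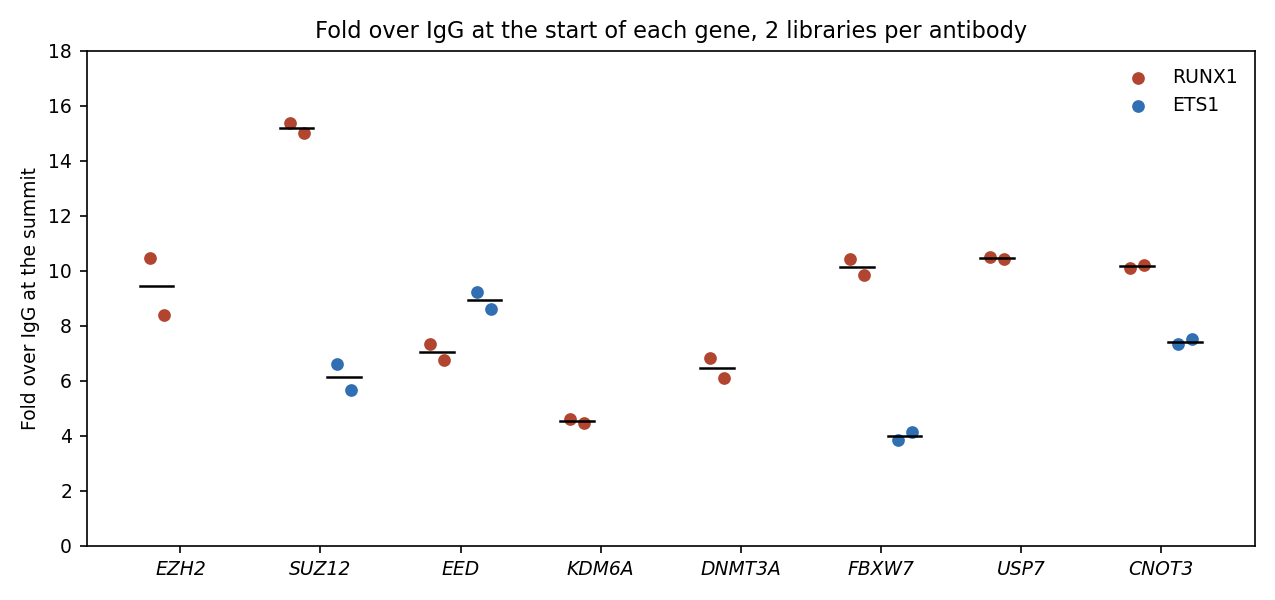
Fold over IgG (linear axis) at the outermost start of the 8 genes with a region, with 1 point per library, RUNX1 left and ETS1 right, and a bar at the mean of 2 libraries. SUZ12 stands above and KDM6A below the other RUNX1 values, and at EED the ETS1 points lie above the RUNX1 points.

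Ranked by RUNX1 fold, the starts ran from SUZ12 (15.2) through USP7 (10.5), CNOT3 (10.2), FBXW7 (10.1), EZH2 (9.43), EED (7.05) and DNMT3A (6.46) to KDM6A (4.55). Both libraries of SUZ12 lay above those of every other start and both libraries of KDM6A below. The values of EZH2 overlapped those of USP7, CNOT3 and FBXW7, those of FBXW7 overlapped those of CNOT3, and those of EED overlapped those of DNMT3A. Ranked by pileup the order was another one, led by FBXW7 and CNOT3 (204 and 190 fragments), with EED (67 and 59) and USP7 (62 and 59) last. USP7, the second by fold, had an IgG expectation of 5.002 and 4.75, which only 16.4% of RUNX1 regions undercut. KDM6A, the last by fold, had the highest of the 8 IgG expectations. The part of the IgG level in the order was not tested. The median RUNX1 fold of the 28 regions was 7.93, against 8.20 for all 22802 RUNX1 regions, and the median ETS1 fold of the 5 regions was 6.53, against 5.82 for all 5055.

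**Figure D3:**
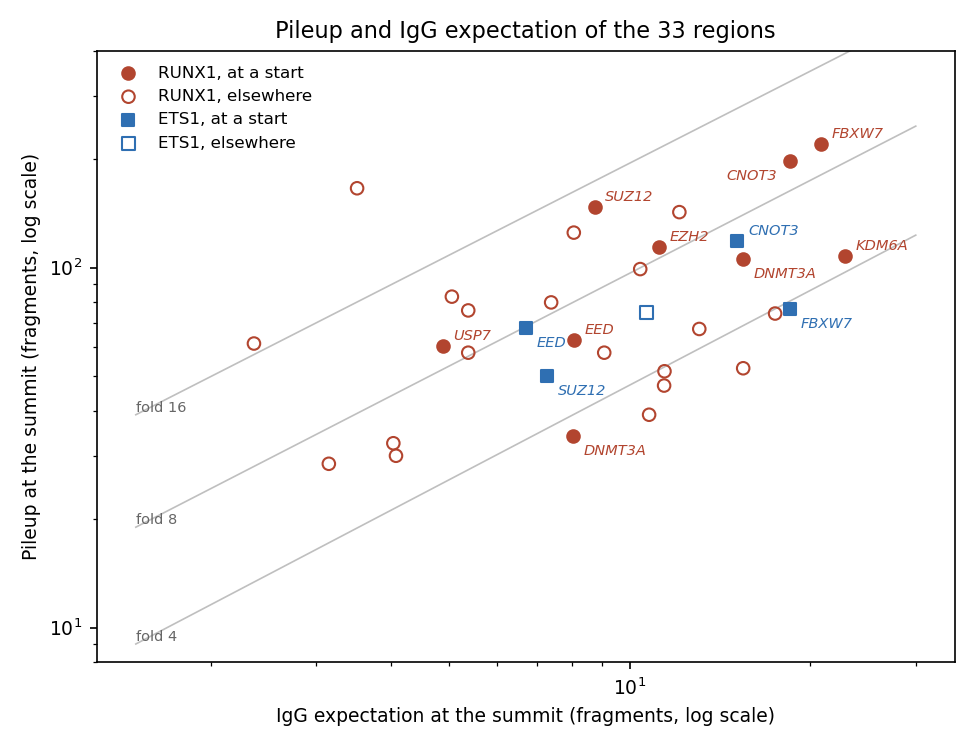
Pileup against IgG expectation at the summit (fragments, both axes logarithmic, means of 2 libraries) for the 28 RUNX1 and 5 ETS1 regions, filled where the region lies at a start and labelled there with the gene. Grey lines join points of equal fold; FBXW7 and CNOT3 sit at high pileup and high IgG expectation, and USP7 reaches a like fold with a low value of each.

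ETS1 regions lay on RUNX1 regions, while most RUNX1 regions had no ETS1, here as in the genome. ETS1 was in 5 of 28 RUNX1 regions (17.9%), against 20.6% of all 22802. All 5 ETS1 regions overlapped a RUNX1 region, and in the genome 97.98% of ETS1 regions did. Only 3 of the 5 did under a reciprocal overlap of 50%, and 3 of 5 with equal peak numbers. At a −log10 q of 20 or more, 3 ETS1 regions were left, and all 3 overlapped RUNX1. In the reverse direction, with regions sorted by the starts of any protein-coding gene, 5 of 11 RUNX1 regions at a start held ETS1 (37.6% of 7394 such regions in the genome), and 0 of 17 elsewhere did (12.4% of 15408). The 11 comprise the 9 at starts of the suppressor genes, 4 of them with ETS1, the region at LENG1, with ETS1, and the region at LRRC37B, without it. In same-numbered libraries, the summits of the factors were 1 and 2 bp apart at SUZ12, 1 and 5 bp at CNOT3, 4 and 27 bp at EED, 58 and 62 bp at FBXW7, and 25 and 116 bp at LENG1. Between libraries of the same antibody, summits were a median of 5 bp (RUNX1) and 1 bp (ETS1) apart in these regions. At FBXW7 the distance between factors was thus larger than that between libraries, which was 0 bp for RUNX1 and 4 bp for ETS1. At LENG1 it was not, since libraries of the same antibody differed by 80 bp for RUNX1 and 171 bp for ETS1.

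**Figure D4:**
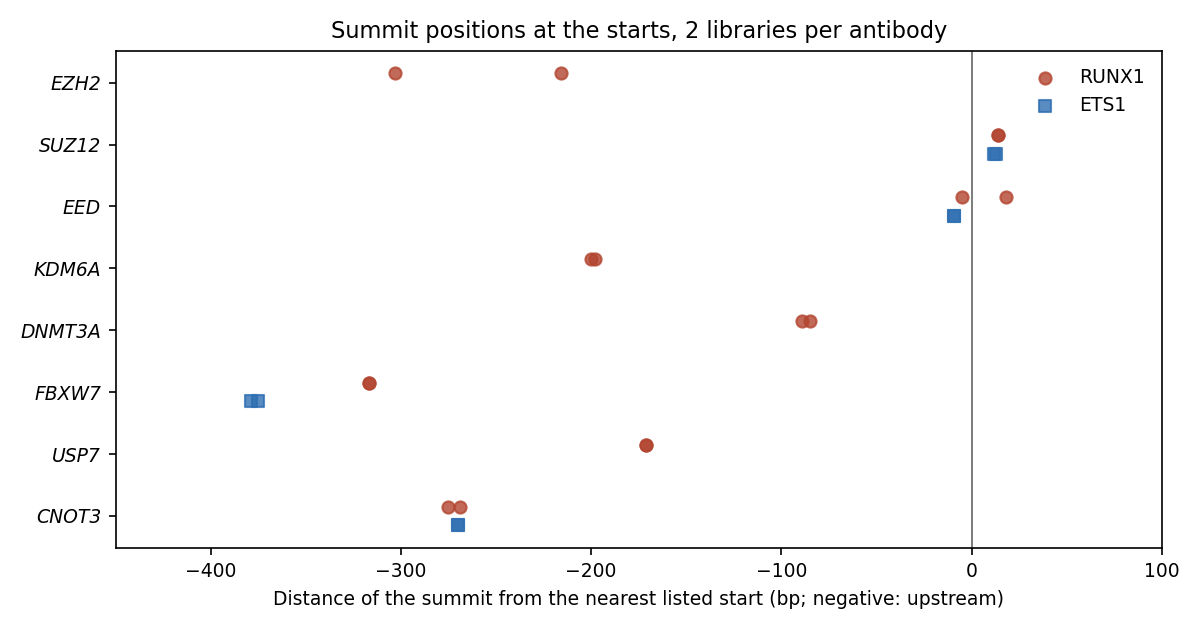
Distance of each summit from the nearest listed start (bp, negative upstream), with 1 point per library and RUNX1 drawn above ETS1 for each of 8 genes. Summits at SUZ12 and EED lie within 18 bp of the start, and those at FBXW7 lie furthest upstream, with ETS1 at 375 and 379 bp.

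Counted as single peaks, the windows of the 10 genes held 32 and 29 RUNX1 peaks and 5 and 6 ETS1 peaks. Both RUNX1 libraries exceeded both ETS1 libraries, by 25 peaks in the mean (30.5 ± 2.12 for RUNX1 and 5.5 ± 0.707 for ETS1, SD, n = 2 each). An exact permutation test of the libraries gave p = 0.33 (two-sided), the smallest p that 2 against 2 libraries allow. With each library reduced to its 5611 most significant peaks, the difference was -1.5 peaks, RUNX1 minus ETS1. In that setting RUNX1 remained at the starts of SUZ12, FBXW7 and CNOT3 and inside USP7, and ETS1 at all 4 of its genes. At a −log10 q of 20 or more, the difference was 16.5 peaks. RUNX1 then remained at all 8 starts and ETS1 at those of EED and CNOT3. The shares over all genes given above are for the full lists and do not apply to these settings.

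Genes of the same complexes and pathways also carried RUNX1 at most starts. The 57 genes of 6 lists comprised PRC2 and PRC1 partners, DNA methylation, histone H3 methylation and acetylation, the deacetylase complex NuRD, SCF and ubiquitin, and CCR4-NOT. Every one of the 57 had a RUNX1 region in the gene or within 10 kb, against 62.3% of all protein-coding genes, and 32 had an ETS1 region, against 27.5%. At starts, RUNX1 was at 46 of 50 genes and ETS1 at 25 of 50, always with RUNX1, against 48.9% and 20.3% of all genes with a start. None of the 6 lists was tested against other genes. The lists were chosen with earlier results of these data known, so the shares describe chosen genes and give no independent comparison with the genome.

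**Figure D5:**
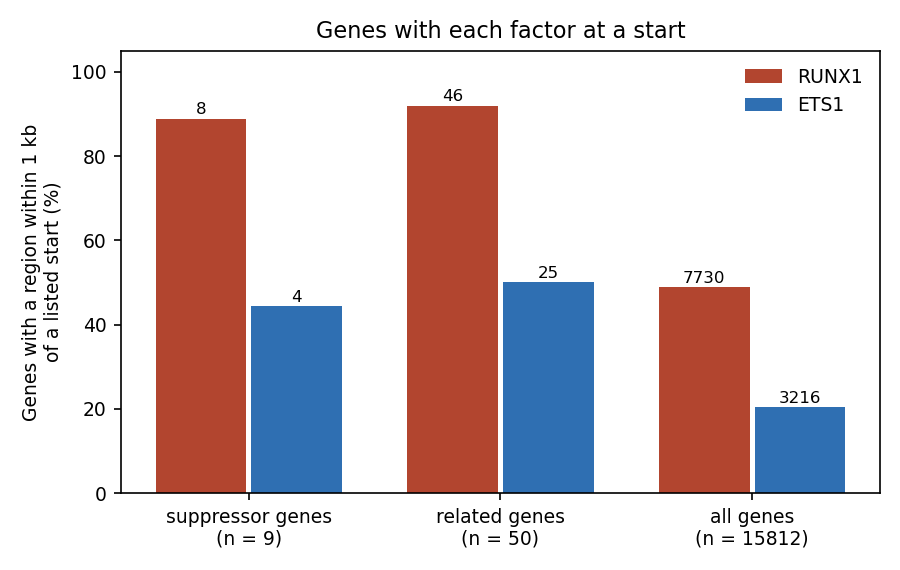
Share of genes (%) with a region within 1 kb of a listed start, for the 9 suppressor genes with a start, 50 related genes and all 15812 genes, RUNX1 left and ETS1 right, with the number of genes above each bar. RUNX1 is at 8, 46 and 7730 genes and ETS1 at 4, 25 and 3216. The suppressor and related genes were chosen with earlier results of these data known.

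Among PRC2 and PRC1 partners, RUNX1 was at 13 of 13 starts and ETS1 at 8. PHF1, a Polycomb-like PRC2 accessory protein, had the highest fold of both factors (RUNX1 41.5 ± 0.623, ETS1 20.3 ± 1.53), above those at the starts of EZH2, SUZ12 and EED. In the DNA methylation list RUNX1 was at 6 of 7 starts and ETS1 at 2. DNMT1, the maintenance methyltransferase, had RUNX1 at 9.21 ± 0.0138-fold and ETS1 at 17.4 ± 0.0837-fold, and TET3, a relative of TET2, had 16.8 ± 1.12-fold RUNX1 at a start without ETS1 there. In the histone H3 list the counts were 9 and 5 of 10, led by KDM6B, the other lysine 27 demethylase (32.9 ± 3.66 and 16.9 ± 0.195). All 5 NuRD genes had RUNX1 and 4 had ETS1, with CHD4 highest for RUNX1 (15.9 ± 0.563) and HDAC1 for ETS1 (18.3 ± 0.652).

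In the SCF and ubiquitin list, RUNX1 was at 7 of 7 starts and ETS1 at 1. That gene was RBX1, the RING subunit of SCF ligases (21.4 ± 0.978 and 7.31 ± 0.581). CUL1, the SCF scaffold, ends within 10 kb of EZH2, and its RUNX1 regions did not lie in that window. In the CCR4-NOT list RUNX1 was at 6 of 8 starts and ETS1 at 5. CNOT6L, a deadenylase, had the highest RUNX1 fold (13.0 ± 0.0305), and CNOT9 the highest ETS1 fold (6.30 ± 0.141), below that at CNOT3.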

How the data were processed

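CUT&Tag peak lists of 4 libraries from 6T-CEM cells, 2 per antibody, were used. Per the submitters' processing notes, bcl2fastq 2.17, Bowtie2 and MACS3 3.0.0a6 were used with build hg38; the sources used here state neither the calling threshold nor how duplicate or multiply mapped reads were treated. Per the file names, the authors called each library separately against IgG. Each deposited peak carries a fold over IgG (a ratio) and −log10 of p and q; the lowest deposited −log10 q was 5.00 to 5.03.

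Peaks on chromosomes 1 to 22 and X were merged per antibody where they touched, and regions with a peak of both libraries were kept; the strongest peak in a region set its fold per library. Fold was read as pileup plus 1 over IgG expectation plus 1, so it lies below the plain ratio of pileup to IgG expectation. Pileup and IgG expectation were solved from fold and −log10 p for 100% of peaks, tested on simulated data. The pileup was a whole number, with a tolerance of 0.01 in −log10 p or a fixed small share of larger values. At the starts of SUZ12 and EED, IgG expectations were 8.96 and 8.27 in RUNX1 library 1 and 8.52 and 7.86 in library 2. In ETS1 libraries 1 and 2 they were 7.61 and 7.02, and 6.96 and 6.43, in nearly the same proportion. All 4 libraries may share an IgG control scaled to each, which was not tested. IgG values are thus not counted as separate measurements, and SDs of fold may hold no spread of the control. Gene bounds, starts and sequences came from RefSeq (GRCh38.p14); 135 protein-coding genes given in scaffold coordinates were left out. Starts were taken as 250 bases into each promoter window, and a region touching 1000 bp either side was counted at a start. Overlap was 1 bp or more. Python 3.11.15, numpy 2.4.6, pandas 2.3.3 and scipy 1.17.1 were used. The test of peak numbers was an exact permutation of libraries. Named genes were all 10 members, the neighbours in their windows, and in each related list the genes of highest fold at a start. The motifs and the windows printed were picked after the peak positions were seen. Members and lists were chosen with earlier results of these data known. Counts for 1 further marker list are not reported here. Alternatives were the peak threshold, equal peak numbers, single libraries, window sizes and the overlap rule.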

Additional observations from a re-analysis of the deposited data

How the results depend on the processing

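Counts of RUNX1 changed most with the length of the lists, and counts of both factors fell with a higher peak threshold. With the 5611 most significant peaks of each library, RUNX1 had 4 regions in 4 genes (3 at starts), against 28 in 8. In that setting 3 ETS1 regions overlapped RUNX1, against 5, and the difference in peaks, RUNX1 minus ETS1, reversed to -1.5, against 25. At a −log10 q of 20 or more, ETS1 had 3 regions in 2 genes (2 at starts), against 5 in 4, 3 of them overlapped RUNX1, RUNX1 had 19 regions in 8 genes, and the difference in peaks was 16.5. Under a reciprocal overlap of 50%, 3 ETS1 regions overlapped RUNX1. Fewer peaks enter the first 2 settings by construction, and the shares over all genes do not apply to them. The cause was otherwise not tested. With 1 library of an antibody alone, RUNX1 had 29 to 32 regions in 8 to 9 genes (8 at starts), ETS1 5 to 6 regions in 4 genes (4 at starts), 5 to 6 overlapping RUNX1, and the difference in peaks was 23 to 27. The ninth gene was PHF6. Gene bounds alone, starts within 300 bp and summits within 100 bp left the counts within 1.5 times. The replicate block left the difference at 25 (exact sign-flip p = 0.5, the smallest 2 pairs allow). The labels link same-numbered libraries only by their number, and a shared culture or batch is not stated. Over 4953 shared regions, fold differences between libraries 1 and 2 correlated across factors with r = 0.0226. This value does not tell whether same-numbered libraries shared a batch. The fold at each start in a single library is the value given per library; this was added after seeing the data and, with 2 libraries, cannot move the mean by more than the SD. Depth is unknown, and absence from a list is no evidence of absence.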
